A study of Homo sapiens with 2 samples.

Results

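The genes described here are the 10 repressors of the circadian clock's negative limb: the period genes PER1, PER2 and PER3, the cryptochromes CRY1 and CRY2, the REV-ERB receptors NR1D1 and NR1D2, the DEC factors BHLHE40 and BHLHE41, and CIART. They were chosen by symbol, and each of the 10 matched 1 of the 58302 Ensembl genes in the count tables. HK-2, an immortalised cell line from the proximal tubule of normal human kidney, was grown in RPMI-1640 with 10% fetal bovine serum at passages 7 to 11. The cells were infected for 24 h with an adenovirus that carried either green fluorescent protein (Ad-GFP) or the coding sequence of Bmal1 (Ad-Bmal1). Both groups therefore carried an adenovirus, and no uninfected library was analysed here. There was 1 library per group, so every ratio describes these 2 libraries and none has a replicate check.

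In the mammalian clock BMAL1 and CLOCK pair on E-box elements and switch on the PER, CRY, NR1D and DEC genes. PER and CRY proteins return to the nucleus and block that pair, DEC proteins compete for the same E-boxes, and CIART binds to and inhibits BMAL1. The REV-ERB receptors work on another arm, where they recruit a corepressor complex to ROR elements in the BMAL1 promoter. Kidney tubule cells have a clock of this kind, which times transport and metabolism.

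The libraries held 20032652 (Ad-GFP) and 20051735 (Ad-Bmal1) counts. Levels are given in CPM (counts scaled to library size) after TMM scaling, where 1 CPM was worth 20.3 and 19.8 counts. Genes at 1 CPM or more in either library are called measured, and they numbered 13231, all 10 repressors among them. BMAL1, the gene named by the vector, had 204 counts in Ad-GFP and 133 in Ad-Bmal1, a ratio of 0.667 (95% counting interval 0.532 to 0.834). The library labelled Ad-Bmal1 thus went against its label at the targeted gene, and below Ad-GFP and Ad-Bmal1 stand for the libraries so labelled, with this limit on every direction. The labels do not give the species of the Bmal1 sequence, and counts per gene do not separate vector from cellular transcripts.

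The labelled cell type was borne out only in small part, as most of the listed proximal tubule markers were not measured. Of 12 proximal tubule markers 3 were measured, GGT1, PAX8 and MME, and LRP2, VIL1, SLC22A6 and SLC22A8 had 0 counts in both libraries, which allows up to 0.148 and 0.151 CPM. CUBN, SLC34A1, SLC5A2, AQP1 and ANPEP had counts but stayed below 1 CPM, and MME had only 29 and 20 counts. The summed level of the 12 was 545 CPM in Ad-GFP and 679 CPM in Ad-Bmal1. Nearly all of it came from PAX8 (321 and 430 CPM) and GGT1 (221 and 246 CPM). Of 6 epithelial markers 5 were measured, CDH2 among them, with sums of 2201 and 2051 CPM. The other, CDH1, had 1 and 4 counts. The sums hide opposite ratios: among the 5 measured, the interval of CDH2 (1.44, 1.37 to 1.52) lay above 1 and 3 lay below. Of all measured genes 23.8% had an interval above 1 and 21.6% below. The 7 leukocyte markers summed to 21.7 and 20.7 CPM, nearly all from CSF1R, and the 5 endothelial markers to 1.53 and 0.606 CPM. PTPRC, CD68, CD3E, KDR and VWF were at 0 in both libraries. The part of these markers in the ratios below was not tested. In a bulk library, fewer cells that express a gene and less of its RNA per cell cannot be told apart.

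The promoters show where the E-box letters lie in these genes, and are given first because most of the 10 are known E-box targets. RefSeq promoter windows on GRCh38.p14 run from 250 bases before to 50 after a start site, and 13 windows covered all 10 repressors. The E-box CACGTG, which reads the same on both strands, was in the windows of PER1, NR1D2, BHLHE40, BHLHE41 and CIART, and in 7.26% of all 35116 windows. The variant CACGTT, called the E-prime box, was found on either strand in PER2, CRY1, CRY2 and NR1D1, and in 5.34% of all windows. Neither spelling was in the 2 windows of PER3. The windows share a length but not a base composition, with 44.8% to 81.6% G and C in the 250 bases before the starts of the repressors.

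Sequences are shown for the 2 repressors with the highest ratios, PER1 and NR1D1, and for the 2 with the most CACGTG, NR1D2 and CIART. Each is the longest part of the 250 bases before the start that lies outside the gene's own GENCODE v29 exons, with CACGTG and CACGTT (on either strand) in capitals. The PER1 stretch is chr17:8152436-8152654, minus strand, within the gene's intron sequence because a longer GENCODE model starts upstream. The NR1D1 stretch is chr17:40100726-40100839, minus strand, upstream of the gene. The second NR1D2 window is chr3:23945871-23946120, plus strand, in an intron of NR1D2 and inside the bounds of the opposite-strand gene NKIRAS1. The CIART stretch is chr1:150282304-150282542, plus strand, upstream of the gene.
PER1: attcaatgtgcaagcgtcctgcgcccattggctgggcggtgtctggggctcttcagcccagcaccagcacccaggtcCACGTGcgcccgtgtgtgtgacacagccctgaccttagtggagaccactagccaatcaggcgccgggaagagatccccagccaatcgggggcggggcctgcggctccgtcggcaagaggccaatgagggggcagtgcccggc
NR1D1: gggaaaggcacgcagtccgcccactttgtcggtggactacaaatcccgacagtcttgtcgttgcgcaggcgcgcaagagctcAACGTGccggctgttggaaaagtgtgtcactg
NR1D2: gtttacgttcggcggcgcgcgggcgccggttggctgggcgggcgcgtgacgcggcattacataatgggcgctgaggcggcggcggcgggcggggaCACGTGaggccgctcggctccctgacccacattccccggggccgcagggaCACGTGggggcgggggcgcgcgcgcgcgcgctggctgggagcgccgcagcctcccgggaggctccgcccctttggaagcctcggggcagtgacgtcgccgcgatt
CIART: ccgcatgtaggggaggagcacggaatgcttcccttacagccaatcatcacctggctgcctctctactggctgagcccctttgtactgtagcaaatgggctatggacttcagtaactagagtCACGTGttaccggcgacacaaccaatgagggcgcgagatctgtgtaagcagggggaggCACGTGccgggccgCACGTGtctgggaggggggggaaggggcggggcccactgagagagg

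CIART had 3 copies of CACGTG, which began 129, 71 and 57 bases before the start, and NR1D2 had 2, at 155 and 105 bases. In PER1 the single E-box began 173 bases before the start, and in NR1D1 the E-prime box lay on the antisense strand at 168 bases. The D-box TTATGNAA, the element read by the PAR bZIP factors, was in windows of PER1, PER3 and NR1D2, and in 3.30% of all windows. The ROR element core TAGGTCA was in the second window of CRY2 and in 1.85% of all windows. TGACG, the core of the cAMP response element (CRE), was in PER2, CRY1, CRY2 and NR1D2, against 24.6% of all windows. No match in these windows overlapped another. Of the ratios given below, that of CIART, with 3 copies of CACGTG in its window, was 0.927. That of NR1D1, with none in its window but 1 E-prime box, was 2.49. Sequence outside the windows was not searched, and the part of any motif in the ratios was not tested.

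**Figure D1:**
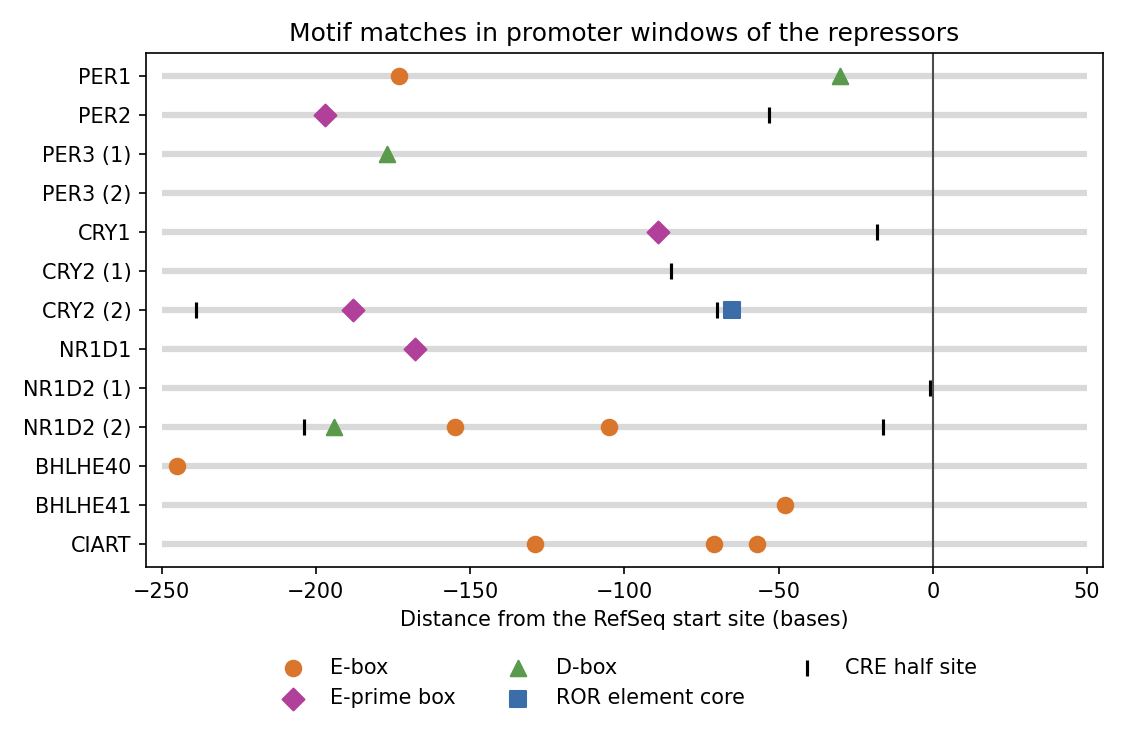
Positions of motif matches in the 13 RefSeq promoter windows of the 10 repressors. The x axis is the distance in bases from the start site (vertical line), each grey bar is 1 window, numbers in brackets tell apart 2 windows of 1 gene, and each symbol is the first base of a match on either strand. CACGTG is in 5 genes and its variant in 4 others, and neither is in PER3.

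Across the 10 repressors, the period genes, NR1D1 and BHLHE41 were higher in Ad-Bmal1, while CRY1 and BHLHE40 were lower. Ratios are Ad-Bmal1 over Ad-GFP, with exact 95% intervals that cover counting error only. Intervals lay above 1 for 5 of 10 repressors, against 23.8% of measured genes, and below 1 for 2 of 10, against 21.6%. The intervals of CRY2, NR1D2 and CIART included 1. A size rule of at least 2-fold with an interval that excludes 1 was met by NR1D1 alone as higher, where 1.13% of measured genes met it, and by no repressor as lower, where 1.74% did. At 1.5-fold PER1 and PER2 also met it as higher, where 4.41% of measured genes did, and again none as lower, where 4.90% did. The median log2 ratio of the 10 was 0.35, and that of all measured genes 0.00.

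**Figure D2:**
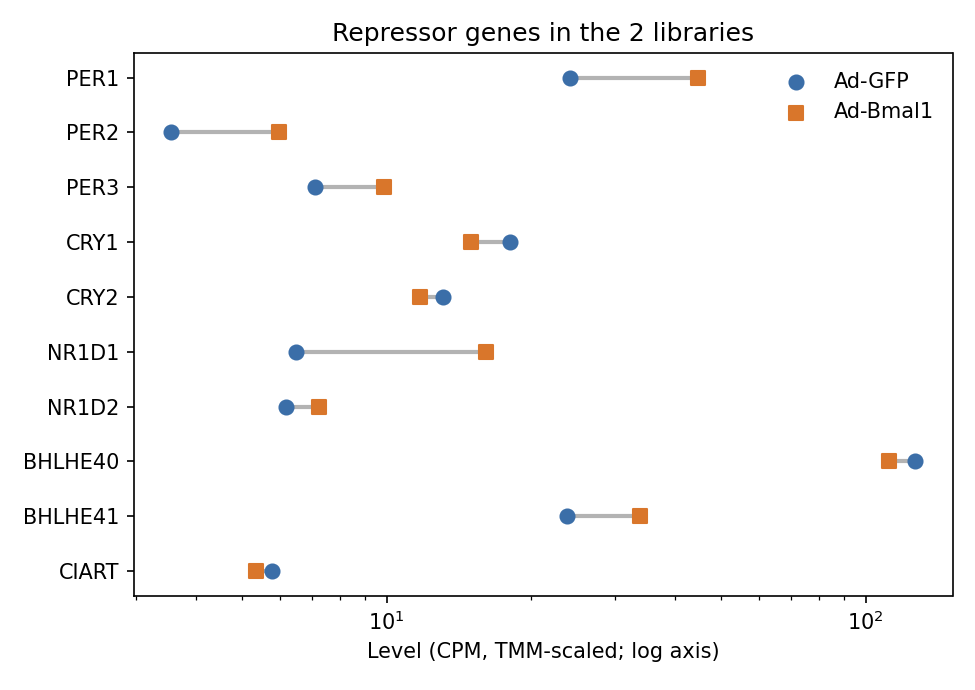
Level of each repressor in CPM (log axis) in the library labelled Ad-GFP (circles) and in the library labelled Ad-Bmal1 (squares), 1 library each. The widest gap is that of NR1D1, from 6.46 to 16.1 CPM, and BHLHE40 lies far to the right of the others in both libraries.

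The period genes encode the PAS-domain proteins that carry CRY into the repressive complex, and all 3 were higher in Ad-Bmal1. PER1 (ENSG00000179094, GRCh38 chromosome 17, 8140472 to 8156506), the member of the family that also responds within minutes to hormone and cAMP signals, had 490 counts (24.2 CPM) in Ad-GFP and 886 (44.7 CPM) in Ad-Bmal1. Its ratio was 1.85 (1.65 to 2.07), and 1.75% of measured genes had a higher one. Of the 3900 other measured genes within 2-fold of its mean level, 13 had a ratio as high. PER2 (chromosome 2, 238244038 to 238290102), mutated in familial advanced sleep phase, had 72 and 118 counts, or 3.55 and 5.96 CPM, and a ratio of 1.68 (1.24 to 2.28). PER3 (chromosome 1, 7784320 to 7845177), the least essential of the family for rhythm in the mouse, had 144 and 196 counts and a ratio of 1.39 (1.12 to 1.74). Among genes of like level, 99 of 3028 had a ratio as high as that of PER2 and 246 of 3390 one as high as that of PER3.

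Taken as a family the period genes had 706 counts in Ad-GFP and 1200 in Ad-Bmal1, a ratio of 1.74 (1.58 to 1.91). PER1 made up most of the family in both libraries, with 69.4% and 73.8% of its counts. A count ratio of 2 genes within a library does not depend on how the libraries are scaled. The PER1 to PER3 ratio was 3.40 in Ad-GFP and 4.52 in Ad-Bmal1, a change of 1.33 times (interval 1.03 to 1.70). The PER1 to PER2 ratio was 6.81 and 7.51, a change of 1.10 times whose interval (0.794 to 1.52) included 1. PER1 thus stood apart from PER3 beyond counting error, and its difference from PER2 was not detectable at this depth.

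The cryptochromes, flavoproteins that bind CLOCK and BMAL1 and carry most of the repression, were not higher in Ad-Bmal1. CRY1 (ENSG00000008405, chromosome 12, 106991364 to 107093829) had 366 and 297 counts, or 18.1 and 14.99 CPM, with a ratio of 0.830 (0.710 to 0.970). Its 99% interval (0.676 to 1.02) included 1. CRY2 (chromosome 11, 45847118 to 45883248) had 266 and 233 counts and a ratio of 0.896 (0.748 to 1.07). The summed counts of both were 632 and 530, a ratio of 0.858 (0.763 to 0.965). The balance of CRY1 to CRY2 was 1.38 in Ad-GFP and 1.27 in Ad-Bmal1, a change of 0.926 times (0.729 to 1.18). PER1 and CRY1, partners in the same complex, had a count ratio of 1.34 in Ad-GFP and 2.98 in Ad-Bmal1, which is 2.23 times as high (1.84 to 2.70).

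NR1D1 had the highest ratio of the 10. It encodes REV-ERB alpha, the haem-binding nuclear receptor that silences BMAL1 (ENSG00000126368, chromosome 17, 40092787 to 40100725, minus strand). It had 131 counts (6.46 CPM) in Ad-GFP and 319 (16.1 CPM) in Ad-Bmal1, which is 2.49-fold higher (2.03 to 3.08). Of all measured genes 0.522% had a higher ratio, and of the 3532 others within 2-fold of its mean level 3 had one as high. NR1D2, the paralog REV-ERB beta (chromosome 3, 23945260 to 23980618), had 125 and 143 counts and a ratio of 1.17 (0.914 to 1.5002). The receptors thus had nearly equal counts in Ad-GFP, with an NR1D1 to NR1D2 ratio of 1.05, and unequal ones in Ad-Bmal1, with 2.23. That is a change of 2.13 times (1.53 to 2.95), beyond counting error under any scaling of the libraries.

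The 3′ end of NR1D1 overlaps that of THRA, the thyroid hormone receptor alpha gene on the opposite strand, and THRA went the other way. Their GENCODE v29 exons share 263 bases (chromosome 17, 40093020 to 40093282), which is 9.49% of the exon bases of NR1D1 and 3.78% of those of THRA. THRA was chosen for this overlap, after the values of NR1D1 were known. It had 572 counts (28.2 CPM) in Ad-GFP and 269 (13.6 CPM) in Ad-Bmal1, which is 2.08-fold lower (1.79 to 2.41). The 2 genes summed to 703 and 588 counts, a ratio of 0.856 (0.766 to 0.956). The NR1D1 to THRA count ratio was 0.229 in Ad-GFP and 1.19 in Ad-Bmal1, 5.18 times as high (4.004 to 6.70). How strand was treated in counting is not given in the sources used here. Reads from the shared bases therefore cannot be assigned, and their part in either ratio was not tested. Of the 11 annotated genes that overlap a repressor, THRA and NKIRAS1, which shares no exon base with NR1D2, were those with at least 50 counts over both libraries.

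The DEC genes encode basic helix-loop-helix repressors that occupy E-boxes, and they went opposite ways. BHLHE40 (DEC1, ENSG00000134107, chromosome 3, 4979116 to 4985323) had 2573 counts (126.9 CPM) in Ad-GFP and 2211 (111.6 CPM) in Ad-Bmal1, a ratio of 0.879 (0.830 to 0.931). Its high count makes the interval narrow, but 14.1% of the 2410 genes of like level had a ratio as low. BHLHE41 (DEC2, chromosome 12, 26120026 to 26125127) had 483 and 671 counts, or 23.8 and 33.9 CPM, and a ratio of 1.42 (1.26 to 1.60). Of the 3939 genes of like level 4.24% had a ratio as high. The BHLHE41 to BHLHE40 count ratio was 0.188 in Ad-GFP and 0.303 in Ad-Bmal1, a change of 1.62 times (1.42 to 1.85). The summed counts of the DEC genes, 3056 and 2882, had a ratio of 0.965 (0.917 to 1.02).

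CIART (also called CHRONO, chromosome 1, 150282543 to 150287093), an inhibitor of BMAL1 with no paralog among the 10, had 117 and 106 counts and a ratio of 0.927 (0.706 to 1.22). Its level was 5.77 CPM in Ad-GFP and 5.35 CPM in Ad-Bmal1, and no difference was detectable at this depth.

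**Figure D3:**
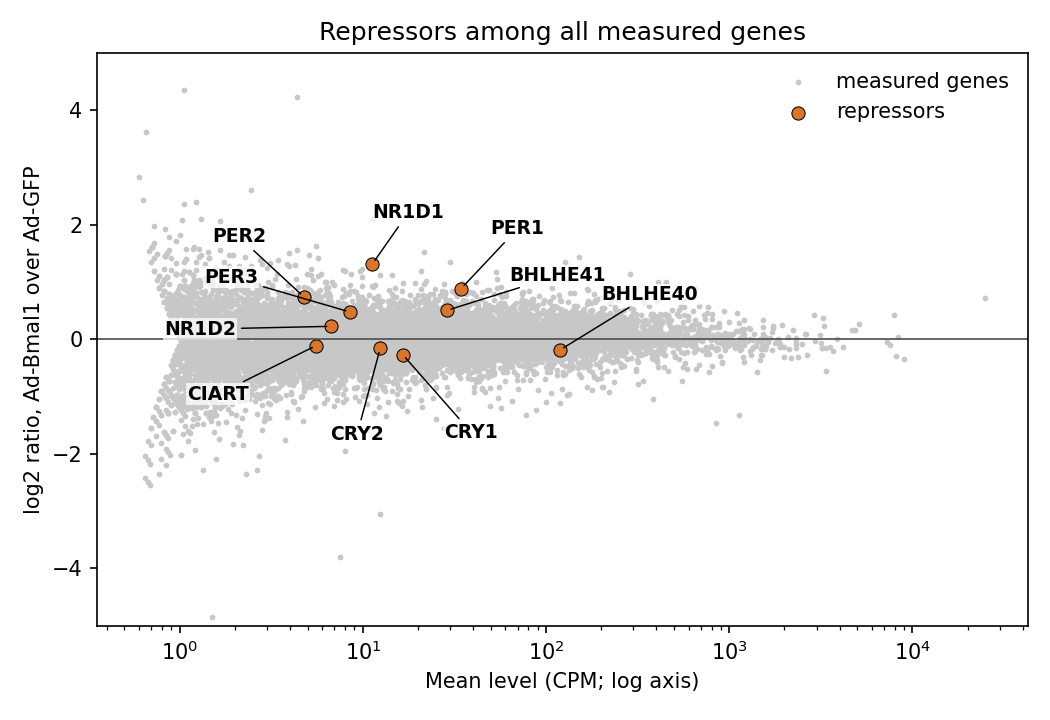
log2 ratio (Ad-Bmal1 over Ad-GFP) against mean level in CPM (log axis), 1 point per measured gene, with the 10 repressors labelled. NR1D1 and PER1 lie at the upper edge of the cloud at their level, and the cryptochromes, CIART and BHLHE40 lie inside it.

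Levels of different genes were compared per length, as TPM (counts per base of transcript, scaled to the same total in both libraries) with the longest coding transcript of each gene and exact Poisson intervals for counting error. BHLHE40 stood first in both libraries, at 76.3 TPM in Ad-GFP (73.4 to 79.3) and 68.3 TPM in Ad-Bmal1 (65.5 to 71.2). In Ad-GFP it was followed by BHLHE41 (13.0 TPM), CRY1 (11.5) and PER1 (10.7), neighbours whose intervals overlapped. CIART (6.90 TPM), CRY2 (6.52) and NR1D1 (4.87) came next, again with overlap between neighbours, then NR1D2 (2.45) with PER3 (2.35), and PER2 last at 1.16 TPM (0.909 to 1.46).

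In Ad-Bmal1 the order of TPM levels was different in the middle. PER1 (20.2 TPM) and BHLHE41 (18.8) overlapped behind BHLHE40, and NR1D1 came next at 12.3 TPM (11.0 to 13.8), above CRY1 at 9.75 (8.68 to 10.9). CIART (6.51) overlapped with CRY2 (5.95), PER3 (3.33) overlapped with NR1D2 (2.92), and PER2 was again last at 1.98 TPM. Over the 10 genes together BHLHE40 held 56.2% of the TPM in Ad-GFP and 45.5% in Ad-Bmal1, PER1 held 7.90% and 13.5%, and NR1D1 held 3.58% and 8.23%. These shares are for the longest transcripts and change with the length used. With the median length over coding transcripts in place of the longest, PER1 came first in both libraries, at 47.9 and 89.5 TPM, so its place against BHLHE40 depends on which transcripts these cells make. With that length NR1D1 (6.85 TPM) lay below CRY1 (9.09) in Ad-Bmal1, and PER2 (2.02) lay above PER3 (1.86) and NR1D2 (1.62), so these places depend on the length too. With merged exons as the length, NR1D1 (7.69 TPM) lay above CIART (7.06) and CRY2 (6.98) in Ad-GFP. In Ad-Bmal1 BHLHE41 (28.6) then lay above PER1 (21.3).

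Activators with an interval off 1 were lower, while most repressors with an interval off 1 were higher. All 5 measured of 7 listed activators had ratios below 1, with a median log2 ratio of -0.51. That of all measured genes was 0.00, so a ratio below 1 was by itself common. Against 21.6% of measured genes, the intervals of 3 lay below 1: BMAL1 (above), its paralog BMAL2 (0.702, 0.587 to 0.837) and NPAS2 (0.645, 0.436 to 0.945), a stand-in for CLOCK. Those of CLOCK (52 and 42 counts) and of RORA (25 and 18 counts), which opposes REV-ERB at ROR elements, included 1. Within each library the NR1D1 to BMAL1 count ratio was 0.642 in Ad-GFP and 2.40 in Ad-Bmal1, a change of 3.74 times (2.74 to 5.09). The PER1 to BMAL1 ratio changed 2.77 times (2.16 to 3.57), from 2.40 to 6.66. The CRY1 to BMAL1 ratio, 1.79 and 2.23, changed 1.24 times (0.945 to 1.64), within counting error.

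**Figure D4:**
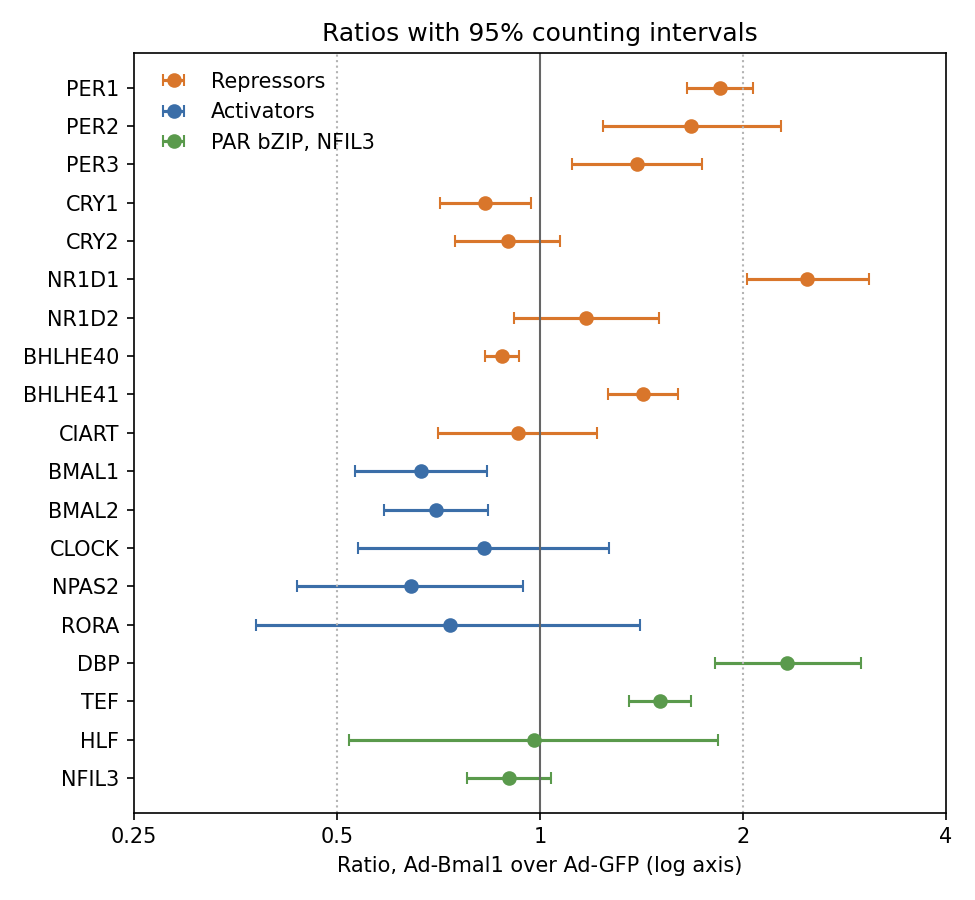
Ratios of Ad-Bmal1 over Ad-GFP (log axis) with 95% counting intervals for the 10 repressors, the 5 measured activators, and the PAR bZIP factors with NFIL3. The solid line is a ratio of 1 and the dotted lines are 2-fold. The ratios of the activators all lie left of 1, but the intervals of CLOCK and RORA cross it. The intervals of NR1D1, DBP, PER1, PER2, PER3, BHLHE41 and TEF lie right of it.

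**Figure D5:**
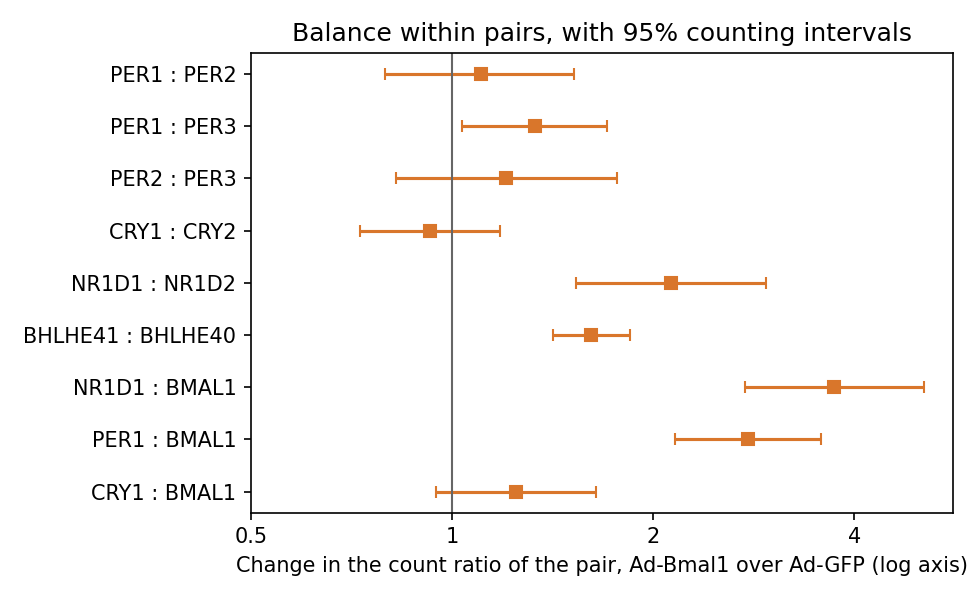
Change in the count ratio of each pair of genes between libraries (log axis), with exact 95% counting intervals. Pairs with BMAL1 are the last 3. NR1D1 gained on NR1D2 2.13 times and on BMAL1 3.74 times, while the intervals of PER1 with PER2, PER2 with PER3, CRY1 with CRY2 and CRY1 with BMAL1 include 1.

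Of the PAR bZIP factors, outputs of the same E-box loop that act on D-boxes, DBP and TEF were higher in Ad-Bmal1. With NFIL3 the list held 4 genes, with 2 intervals above 1 (23.8% of measured genes) and none below (21.6%). Its median log2 ratio was 0.28, and DBP alone met the 2-fold size rule, as did 1.13% of measured genes as higher. DBP had 95 and 216 counts, 2.33-fold higher in Ad-Bmal1 (1.82 to 2.99), and TEF 593 and 872, a ratio of 1.505 (1.35 to 1.67). HLF, with 23 and 22 counts, and NFIL3, the repressor that competes with them, with 415 and 365, had intervals that included 1. That of HLF (0.979, 0.520 to 1.84) was wide and also held the ratio of TEF. The NR1D1 to DBP count ratio was 1.38 in Ad-GFP and 1.48 in Ad-Bmal1, a change of 1.07 times (0.771 to 1.49).

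The corepressors through which REV-ERB acts were all measured, with 3 of 6 intervals above 1 (23.8% of measured genes), none below (21.6%) and a median log2 ratio of 0.20. The scaffold NCOR1 (406 and 591 counts, ratio 1.49, 1.31 to 1.69) was higher in Ad-Bmal1, as was TBL1X (1778 and 2308, 1.33, 1.25 to 1.41). The deacetylase HDAC3 had a ratio of 0.967 (0.901 to 1.04), TBL1XR1 0.987 (0.870 to 1.12) and GPS2 0.942 (0.671 to 1.32). With a trend on transcript length removed, NCOR1 (1.28) and TBL1X (1.21) stayed above 1 but fell below their intervals. HDAC3 and GPS2 then lay on the other side of 1, at 1.02 and 1.01. Among 14 genes known as REV-ERB targets in other cells, 10 were measured, with 7 ratios below 1 and 3 above. Their median log2 ratio was -0.21, against 0.00 for all measured genes. Intervals of 4 lay below 1 and of 1 above, where 21.6% and 23.8% of measured genes did. The 4 were those of BMAL1, NPAS2, CRY1 and, named after its values were seen, the chemokine gene CCL2 (54 and 31 counts, 0.587, 0.365 to 0.930). BMAL1 and NPAS2 are also counted above as activators, and CRY1 as a repressor. Among the most abundant targets, the cytokine gene IL6 had a ratio of 1.04 (0.999 to 1.08).

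Genes whose proteins modify or join PER and CRY went both ways, and none met the 2-fold size rule. Of 13 kinases, ligases, phosphatases and related genes, 3 had intervals above 1 and 4 below, where 23.8% and 21.6% of measured genes did, with a median log2 ratio of -0.04. Named after their values were seen, the lowest of those intervals off 1 was that of CSNK1E, a kinase that marks PER for turnover (0.759, 0.708 to 0.815), and the highest that of the kinase GSK3B (1.33, 1.22 to 1.46). The most abundant were the phosphatase PPP1CA (1.03, 0.9899 to 1.07) and the kinase CSNK2A1 (0.928, 0.890 to 0.968). With the length trend removed, GSK3B (1.19) and CSNK2A1 (0.788) fell below their intervals and PPP1CA (1.10) rose above its own. Of 8 complex partners 4 intervals lay above 1 and 2 below, against the same shares, with a median of 0.10. The highest ratio, named after it was seen, was that of the chromatin remodeller CHD4 (1.34, 1.30 to 1.38). With the length trend removed CHD4 was at 1.23, below that interval. NONO, an RNA-binding partner of PER, had a ratio of 1.02 (0.999 to 1.05) and the deacetylase HDAC1 1.02 (0.992 to 1.05), and both lay just below 1 when scaled by total counts.

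PER1 and BHLHE40 also answer to signals outside the clock, and other genes of those responses are given beside them. Their counts stand against the same 23.8% of measured genes with an interval above 1 and 21.6% with one below. PER1 is a glucocorticoid receptor target. Of 9 measured genes of that list, PER1 included, 2 intervals lay above 1 and 5 below, with a median of -0.19. The 2 were those of PER1 and, named after its values were seen, TSC22D3 (1.28, 1.19 to 1.37). Among the 5 were abundant members of the list. MT2A, a metallothionein, had a ratio of 0.796 (0.785 to 0.807) and ERRFI1, an inhibitor of the EGF receptor, 0.757 (0.726 to 0.789). PER1 is also a target of cAMP and CREB. Of 8 measured genes of that list, PER1 included, 3 intervals lay above 1 and 1 below, with a median of 0.28. RGS2, a brake on G protein signalling, met the size rule with 72 and 35 counts, 2.01-fold lower (1.32 to 3.10), but missed it with a prior count of 2 (ratio 0.511) or the length trend removed (0.531). SIK1, a kinase gene named after its values were seen, had 261 and 504 counts and a ratio of 1.98 (1.70 to 2.30).

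BHLHE40 is induced by low oxygen, and its list of 12 hypoxia-induced genes, itself included, had 9 intervals below 1 and 2 above, with a median of -0.28. SLC2A1, the glucose transporter GLUT1, had 15772 and 10806 counts and a ratio of 0.701 (0.684 to 0.718), and BNIP3, a mitophagy receptor, one of 0.864 (0.844 to 0.886). BHLHE40, at 0.879 (0.830 to 0.931), lay nearer to 1 than SLC2A1, and its interval held that of BNIP3. Whether any of these signals differed between the cultures was not tested.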

How the data were processed

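RNA was measured in 2 libraries of HK-2 cells, 1 per group, grouped by sample title. The authors deposited raw counts per Ensembl gene, with no normalisation that the whole-number values show. The submitters' processing notes name HISAT2 as a tool and GRCh38 (hg38) as the genome build. The sources used here do not name a counting tool, a strand setting or an annotation. Libraries were made from polyadenylated RNA and read as pairs of 150 bp, per the labels' protocols.

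TMM scaling (edgeR 4.0.16, R 4.3.3) used factors of 1.01 for Ad-GFP and 0.988 for Ad-Bmal1. No quasi-likelihood test was possible with 1 library per group, so neither p-values nor SDs are given. Ratios have exact conditional binomial (Clopper-Pearson) intervals, and pairs of genes exact conditional intervals of the odds ratio, at 95%. Intervals and the floor of 3 counts cover counting error only, which PCR copies can understate since there were no molecular identifiers. The steps were tested on simulated Poisson counts, which hold only the counting error that the intervals assume. That test says nothing about variation between replicates or PCR copies. Python 3.11.15, numpy 2.4.6, scipy 1.17.1, pandas 2.3.3 and statsmodels 0.14.6 were used.

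Gene models and lengths are from GENCODE v29, which held 99.5% of the identifiers, and promoters from RefSeq on GRCh38.p14. Of the 50-base words of each repressor's longest coding transcript, 1.40% in PER2 and 0% in the other repressors also occurred in transcripts of other genes, so no 2 paralogs shared such a word. All repressors are named, as are the measured activators, PAR bZIP factors and corepressors. Of other lists the genes that met the size rule are named, or the 2 most abundant, and in the glucocorticoid list those other than PER1. A few genes that this rule covers are counted in their lists but not reported here by name. The members and lists were chosen with earlier results of these data known. The sum without BHLHE40, the sum of NR1D1 with THRA and the pairs of genes from different families were added after seeing the data.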

Additional observations from a re-analysis of the deposited data

How the results depend on the processing

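The ratio of each repressor stayed within its 95% counting interval when scaled by size factors from DESeq2 1.42.0, by upper quartiles, by total counts or by totals that omit mitochondrial genes and the 20 most abundant ones, and under removal of a trend on transcript length, thinning of the deeper library and a prior count of 2. NR1D1 ranged from 2.43 under total counts to 2.54 with the length trend removed, and PER1 from 1.79 with it removed to 1.85. Genes outside the repressors did not all stay within their intervals with it removed, as given above for NCOR1, TBL1X, GSK3B and CHD4. A minimum of 10 CPM kept 6 repressors, of which 3 had intervals above 1, and their median log2 ratio was 0.17. At 1.5-fold the size rule was met by 3 repressors as higher, NR1D1, PER1 and PER2, where 4.41% of measured genes met it, and at 4-fold by 0. With 99% intervals 1 repressor, BHLHE40, lay below 1, since that of CRY1 included it. No share of all genes is given for the 10 CPM minimum, the 4-fold rule or the 99% intervals. These counts of repressors are therefore not set against a background. The summed counts of the 10 had a ratio of 1.11 (1.07 to 1.16), which was 1.38 (1.31 to 1.46) without BHLHE40, the source of 54.0% of the counts in Ad-GFP. THRA stayed at least 2-fold lower under the same scalings, with ratios from 0.465 to 0.483. The median log2 ratio of all measured genes lay between -0.03 and 0.00 under these scalings. No paired analysis was possible because each group has 1 library. The sample labels give no replicate numbers, and the numbers in the column headers of the tables differ between the groups and were not used. Leaving out a replicate was not possible for the same reason. The depth limits PER2, PER3, NR1D2 and CIART most, whose counts were 72 to 196. It also limits NR1D1, which had 131 counts in Ad-GFP.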
